A study of Polistes metricus with 16 samples.

Results

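A set of 150 transcript identifiers that were at or near 0 counts in the brains of worker paper wasps, and present in the brains of foundresses, is described here. The species is Polistes metricus. The members were chosen on measured values: an identifier qualified if its counts summed to 8 or fewer over the 8 workers and if it had 3 or more counts in at least 4 of the 8 foundresses. Of 127674 identifiers, 550 qualified, and the 150 with the highest median in foundresses, in CPM (a count divided by the library total, times 1000000), are the members. The rule fixes that members are low in workers, so the difference between the castes is given as a description and was not tested.

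The series holds 16 brains of adult females, each sequenced as a library of its own, in 4 groups of 4. A p-value below therefore measures the spread between wasps. Workers on allospecific nests were kept as adults on a foreign nest of the related species Polistes fuscatus, and workers on conspecific nests on a foreign nest of their own species, for a week or more in each case. Foundresses, which start nests in spring, came from nests of their species, and the labels mention no swap for them. Each wasp went through 40 trials in a T-maze with negative reinforcement and was killed 30 minutes later. Both worker groups and 4 of the foundresses were trained to P. fuscatus faces, and the other 4 foundresses to simple patterns. By their date labels, 7 workers were taken in July and MW21 in June, the foundresses trained to faces in June and those trained to patterns in May. Stimulus and month cannot be told apart in foundresses, and caste overlaps with month only through MW21. The stay on a foreign nest was given to workers alone, so it cannot be told apart from caste.

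Foundresses and workers of Polistes are females of the same species that can develop from the same kind of egg. Their differences in physiology and behaviour are therefore studied through which genes are active rather than through which genes are present. In a transcript set of this kind an identifier can stand for a whole gene, for a fragment of it or for a variant, and identifiers with neighbouring numbers can belong together. Gene names do not accompany the identifiers, and their sequences were not used here, so no function, gene list or cell type marker can be attached to any member. The labelled tissue, brain, was not checked against markers for the same reason.

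Library totals ran from 14949149 to 20528177 counts in workers and from 17289375 to 22832434 in foundresses, so workers were sequenced somewhat less deeply. Identifiers with at least 1 count numbered 82298 to 88836 in workers and 89775 to 99735 in foundresses. In 1 random draw that thinned every library to 14949149 counts, which equalises the castes and also lowers the depth under fixed count limits, 329 identifiers met the rule, against 550 at full depth, and 116 of the 150 members were among them. The same rule with the castes exchanged, for identifiers nearly absent from foundresses, was met by 104 identifiers after thinning and by 73 at full depth.

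The members were rare transcripts in foundresses too. Their median foundress level ran from 0.150 CPM at rank 150 to 2.02 CPM at rank 1, with a median over members of 0.178 CPM. Over the 69047 identifiers with 3 or more counts in at least 4 foundresses, that median was 2.73 CPM. Only 6 members had a median foundress level of 0.5 CPM or more, and 129 lay under 0.3 CPM. A typical member had 30 counts summed over the 8 foundresses, within a range of 18 to 328, and 6 counts summed over the 8 workers. An exact Poisson 95% interval for 30 counts runs from 20.2 to 42.8, so the level of a single low member is known only roughly. Such intervals cover counting error only. In whole brains, fewer cells of a type and less RNA per cell cannot be told apart.

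Many members were not wholly absent from workers. No count in any worker was found for 3 members, at ranks 16, 18 and 48, while 30 others had 1 to 4 counts over the 8 workers and 117 had 5 to 8. A count in at least 1 worker was thus found for 147 of the 150, and the median member had a count in 4 of the 8 workers. The highest count of any member in a single worker was 6, and the highest in a single foundress was 84. The foundress level over the worker level, both pooled over 8 wasps, had a median of 16.1 in ranks 1 to 20 and of 3.73 in the ranks above 100 (with the limit of 3 counts over the 8 workers used for members at 0). This order follows in part from the rule, which ranks by foundress level under a fixed worker limit, and the ranks above 100 also held a ratio of 74.2. The lowest ratio was 1.99, and 86 members had one under 5.

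**Figure D1:**
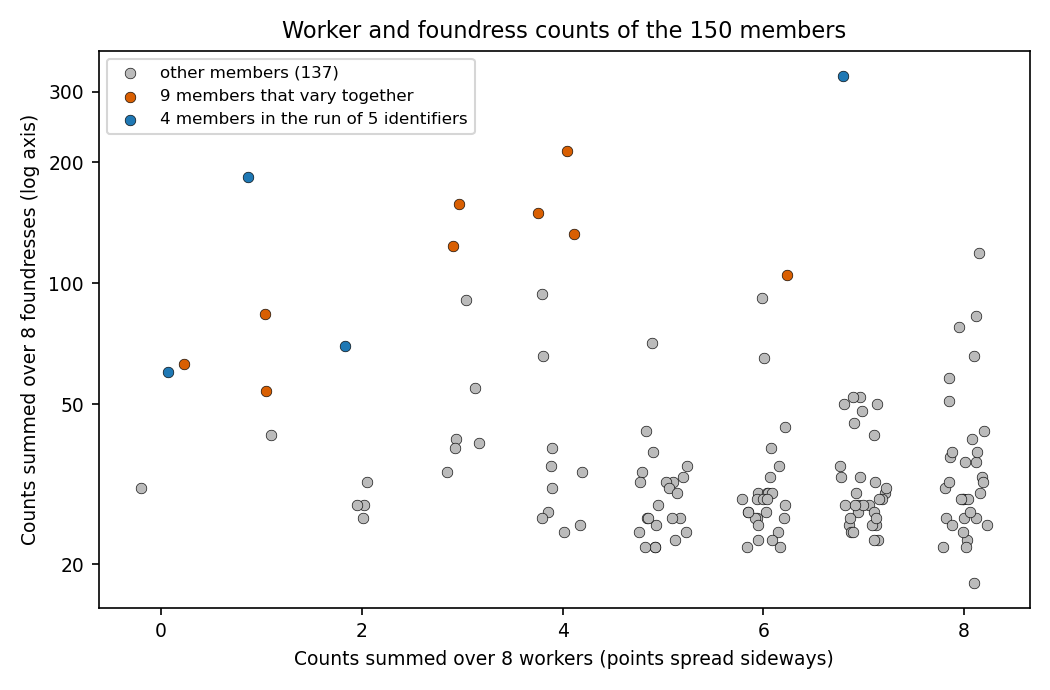
Counts of each member summed over the 8 workers (horizontal axis, points spread sideways for legibility) and over the 8 foundresses (vertical log axis), with colours for the 4 members in a run of 5 consecutive identifiers and the 9 that vary together, both described below. The member with the most foundress counts reaches 328, and the median member has 30 foundress and 6 worker counts.

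Per wasp, the summed level of the 150 members was 4.82 to 7.17 CPM in workers and 28.1 to 53.7 CPM in foundresses. By group it averaged 5.995 ± 1.25 CPM in workers on allospecific nests, 6.14 ± 0.405 CPM in workers on conspecific nests, 41.8 ± 12.5 CPM in foundresses trained to faces and 39.4 ± 10.7 CPM in foundresses trained to patterns (SD, n = 4 each). The gap between castes follows from the choice of members, and the limit of 8 counts over all workers also leaves little room for the worker groups to differ. Among foundresses the spread was wide: the highest, M91, M1 and M79, stood at 53.7, 52.6 and 51.1 CPM against 28.1 CPM in M30. Of the 150 members, 59 to 84 had a count in a given worker and 130 to 144 in a given foundress.

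**Figure D2:**
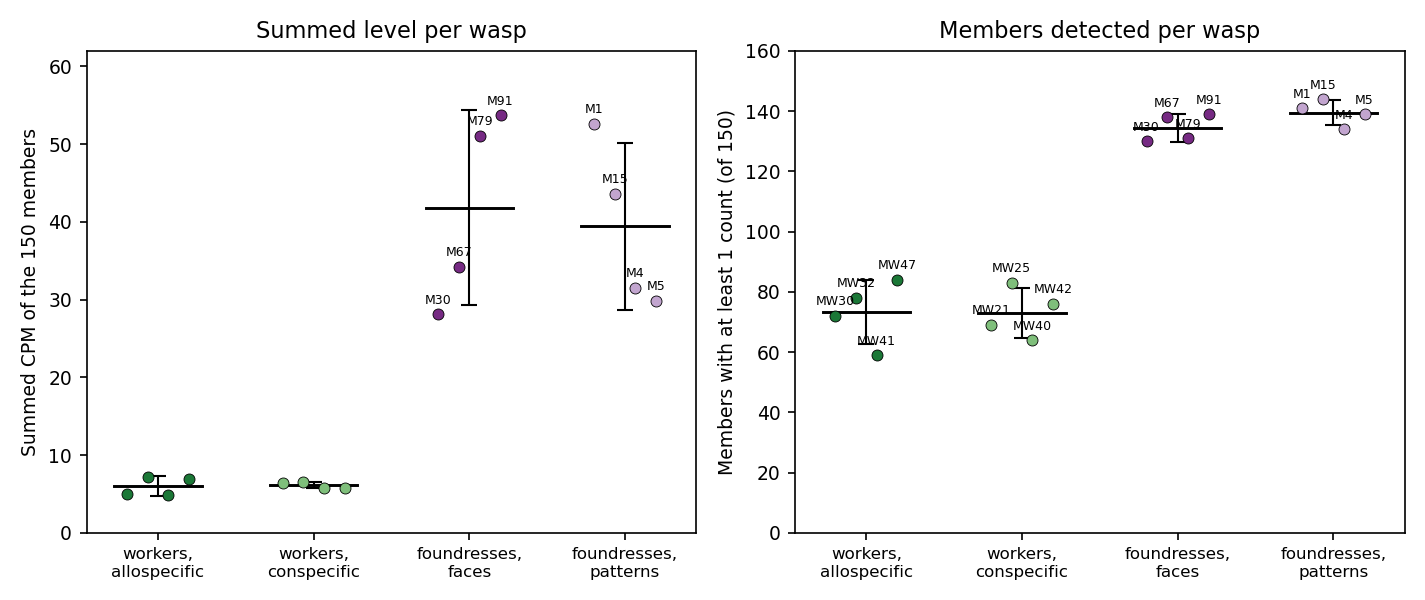
Summed level in CPM (left) and number of members with at least 1 count (right) per wasp, by group, with the mean as a line and the SD as bars (n = 4 each). Workers lie at 4.82 to 7.17 CPM and foundresses at 28.1 to 53.7 CPM, a gap that the rule for members fixes.

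The worker counts that the rule allows were spread over both nest groups. The members together had 437 counts in the 4 workers on allospecific nests and 431 in the 4 workers on conspecific nests. There were 69 members with more counts on allospecific nests, 59 with fewer and 22 with equal counts. The June worker MW21 had 119 counts of members, at 6.38 CPM, inside the range of the July workers (4.82 to 7.17 CPM).

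The member with the highest median foundress level was PmetTSAr2.0-032696. It had 1, 0, 0 and 0 counts in workers on allospecific nests (MW30, MW32, MW41, MW47) and 3, 1, 0 and 2 counts in workers on conspecific nests (MW21, MW25, MW40, MW42). In foundresses it had 12, 7, 49 and 58 counts after training to faces (M30, M67, M79, M91) and 84, 50, 28 and 40 counts after training to patterns (M1, M15, M4, M5). Every foundress lay above every worker in CPM, and within foundresses the counts of M30 and M67 were the lowest. The mean was 0.0465 ± 0.0601 CPM in workers and 2.09 ± 1.37 CPM in foundresses (SD, n = 8 each). The foundress level over the worker level was 41.4 with pooled counts, with an exact 95% interval of 19.9 to 104. That interval covers counting error only and not the spread between wasps, and the member was chosen on these same counts.

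The second in the ranking was PmetTSAr2.0-032692, whose number is 4 below the first. Among workers a single count was found, in MW21. Foundresses trained to faces had 14, 1, 50 and 29 counts (M30, M67, M79, M91) and those trained to patterns 34, 27, 13 and 16 (M1, M15, M4, M5). M67, with 1 count, lay at the level of MW21, so the castes overlapped here. The mean was 0.00670 ± 0.0190 CPM in workers and 1.17 ± 0.793 CPM in foundresses (SD, n = 8 each). With 1 worker count the ratio of 163 has an interval from 28.8 to 6455, again for counting error only.

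These 2 members lie in a run of 5 consecutive identifiers, in each of which the pooled worker level was under 0.5 times the foundress level. The run holds the members at ranks 1, 2, 8 and 18, and its remaining identifier had 0 counts in workers and 17 in foundresses. It was chosen after its values were seen. In all, the run had 10 counts in workers and 659 in foundresses. Summed over the run, levels were 0 to 0.268 CPM in workers, with 5 of the 10 counts in MW21 and none in 4 workers. They were 1.47, 0.417, 6.02 and 6.42 CPM in foundresses trained to faces (M30, M67, M79, M91) and 8.14, 5.001, 2.76 and 3.28 CPM in foundresses trained to patterns (M1, M15, M4, M5).

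A run ends by definition at the first identifier that misses this limit, so its flanks are given as a description of where it lies. The next one after it stood at 55.4 ± 4.34 CPM in workers and 48.1 ± 4.99 CPM in foundresses (SD, n = 8 each), and edgeR's quasi-likelihood test gave it a log2 difference of 0.16 ± 0.08 (SE), workers minus foundresses, with an adjusted p of 0.259. The one before it stood at 0.481 ± 0.235 CPM in workers and 0.234 ± 0.134 CPM in foundresses. The run thus sits between an abundant identifier of similar level in both castes and a rare one whose mean was higher in workers. Whether neighbours share reads was not tested, and the handling of such reads was not given in the sources used here.

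**Figure D3:**
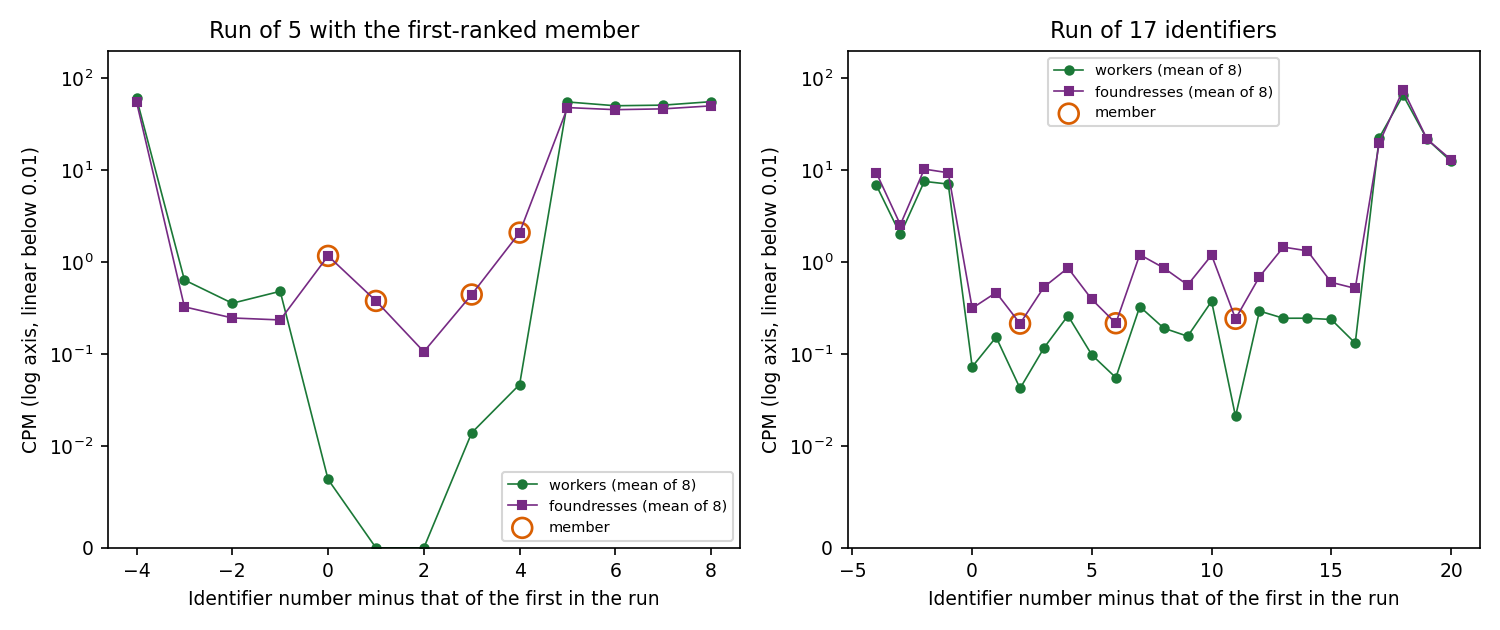
Mean level of consecutive identifiers in 8 workers and 8 foundresses (vertical log axis, linear below 0.01 CPM), with 4 identifiers on either side of each run and members circled. In the run of 5, workers lie at 0 to 0.0465 CPM and foundresses at 0.106 to 2.09 CPM. In the run of 17 both castes are detected throughout, with workers lower in every identifier.

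The members fell into 138 runs of this kind, 74 of which were single identifiers, while 8 runs held 2 or more members and 20 members together. A run of 3 identifiers, all members, holds ranks 3 and 11. Its summed level was 0.140 ± 0.0834 CPM in workers and 1.34 ± 0.817 CPM in foundresses (SD, n = 8 each), with the highest value of 3.21 CPM in M15. Another run of 3, with the members at ranks 5 and 7, stood at 0.143 ± 0.167 CPM in workers and 1.71 ± 0.794 CPM in foundresses (SD, n = 8 each). Of the 20 counts of that run in workers, 9 were in MW25.

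The longest run had 17 consecutive identifiers, with 424 counts in workers and 1902 in foundresses. Only 3 of them are members, at ranks 38, 41 and 44; the other 14 had too many worker counts to meet the rule. Summed levels were 2.19, 1.06, 3.40 and 2.03 CPM in workers on allospecific nests (MW30, MW32, MW41, MW47) and 4.34, 4.52, 4.55 and 2.04 CPM in workers on conspecific nests (MW21, MW25, MW40, MW42). They were 16.4, 10.7, 13.3 and 9.37 CPM in foundresses trained to faces (M30, M67, M79, M91) and 17.2, 14.9, 5.005 and 6.48 CPM in foundresses trained to patterns (M1, M15, M4, M5). The castes did not overlap, although M4 lay little above the highest workers, and this run too was chosen on its values.

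Identifiers next to members were also compared between castes. The rule did not use their own counts, but whether reads shared with members carry the choice of members over to them was not tested. Of 836 identifiers within 3 numbers of a member, 8 of which met the rule themselves without being members, 263 had enough counts to be tested over all 16 wasps. By edgeR's quasi-likelihood test 15 of the 263 (5.70%) were called lower in workers at an adjusted p under 0.05, against a background of 1.52% among the 55226 identifiers tested. In that direction 39 had an unadjusted p under 0.05, and DESeq2 called 22. None of the 263 was called higher in workers, against a background of 2.16%; 30 of them had an unadjusted p under 0.05 upward, and DESeq2 called 2. Of the 15, 8 lay in the run of 17, so the calls are not independent of each other. Those 8 met the filter's count limit in enough libraries only among foundresses, the caste in which they were higher. Through which caste the other 7 passed was not examined, so the share called lower is a description. Outside the run of 17, 7 of 254 (2.76%) were called lower. The log2 differences of the 15, workers minus foundresses, ran from -3.27 to -0.77.

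Over all 263 neighbours, the castes were nearly balanced, with 130 identifiers higher and 133 lower in workers. Their median log2 difference, workers minus foundresses, was -0.02, against 0.02 over all identifiers tested. A log2 difference under -1 was found in 6.46% of the neighbours and in 0.909% of all tested. The tested neighbours in the longest run all lay under -1, from -2.615 to -1.41, and are included in the 6.46%. That run therefore raised the share, and the share without it was not computed. Directly adjacent to 37 members (24.7%) lay an identifier above 1 CPM in all 8 workers. The same held for 68.3% of the 69047 identifiers with 3 or more counts in at least 4 foundresses, a difference for which no test was made. The 69047 were not matched to members for level, with a median foundress level of 2.73 CPM against 0.178 CPM.

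Whether members vary as 1 block across foundresses could not be settled at these counts. Among the 40 members with 40 or more foundress counts, the correlation of log2(CPM + 0.5) over the 8 foundresses had a median of 0.05 over pairs, with 5% of pairs under -0.63 and 5% above 0.86. These points share libraries and depth, and with 8 wasps single correlations are loose. Counting error at low counts also lowers correlations, so a median near 0 does not show that members vary separately. Linking pairs with a correlation above 0.9 gave 3 sets, of 9, 3 and 2 members, and left the other 26 unlinked. The set of 3 lies within the run of 5 described above.

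The 9 linked members, at ranks 4, 6, 15, 16, 21, 22, 24, 26 and 119, do not lie next to each other: the closest pair is 22 numbers apart. Their summed level was 0.825, 3.89, 18.7 and 17.7 CPM in foundresses trained to faces (M30, M67, M79, M91) and 11.5, 1.79, 2.08 and 0.482 CPM in foundresses trained to patterns (M1, M15, M4, M5). For each of the 9, the 3 highest foundresses were M79, M91 and M1, which come from both groups and both months. This order was not particular to the set. The same 3 wasps were highest for 15 members in all, among them those at ranks 1, 2 and 8 outside the set. Those 3 wasps held 896 of the set's 1085 foundress counts (82.6%). The median correlation between pairs of the 9 was 0.95, and the lowest was 0.823. The set was formed by linking pairs above 0.9 over these same foundresses. Its high correlations and shared order of wasps therefore follow from that choice and are given as a description.

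Workers had 26 counts of these 9 members. Of the 26, 13 were in MW47, with counts for 7 of the 9, and 5 each in MW30 and MW32, also from allospecific nests, while 3 were in MW25 from a conspecific nest. MW41, MW21, MW40 and MW42 had none. The member at rank 16, with 63 foundress counts, had no worker count at all. MW47, at 0.677 CPM, stood near M30 at 0.825 CPM and above M5 at 0.482 CPM, so the castes overlapped for this set.

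**Figure D4:**
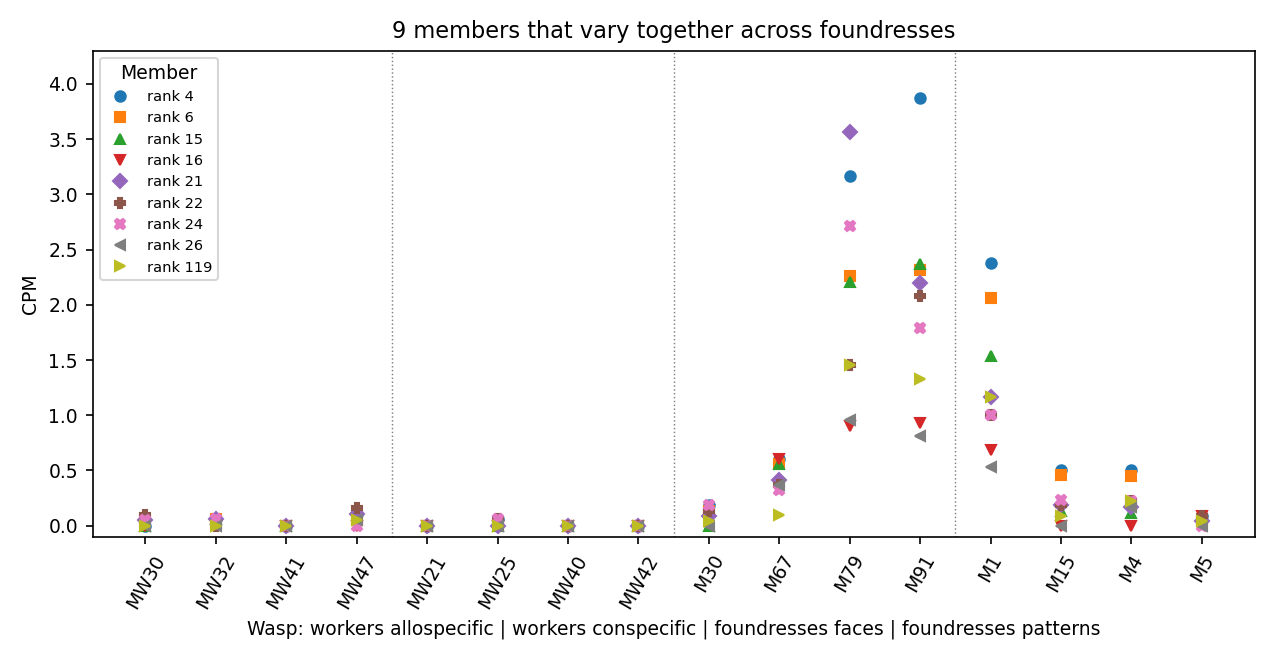
Level in CPM of each of the 9 members that vary together, in every wasp (symbols, 1 per member, named by rank), with groups separated by dotted lines. M79, M91 and M1 are the 3 highest foundresses for each of the 9 members, and the summed level of the 9 is 11.5 CPM or more in these wasps and 3.89 CPM or less in the others.

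Without these 9, the remaining 141 members summed to 5.89 ± 0.762 CPM in workers and 33.5 ± 5.56 CPM in foundresses (SD, n = 8 each). The order of the foundresses then changed: M15 at 41.8 CPM and M1 at 41.1 CPM were highest and M30 at 27.3 CPM lowest. By training the 141 summed to 31.5 ± 3.64 CPM in foundresses trained to faces and 35.4 ± 6.96 CPM in foundresses trained to patterns (SD, n = 4 each). The 9 were linked by how they vary over these same foundresses. The changed order and levels by training therefore follow in part from taking them out. Over the table, 33 further identifiers with 3 or more counts in at least 4 foundresses correlated above 0.9 with the mean of the 9 across foundresses. Of the 33, 25 had a lower pooled level in workers, for which no share over all identifiers was computed. The pooled worker level was under 0.5 times the foundress level for 7 of the 33, against 2.78% of the 69047 identifiers. The rule was met by 2 of the 33, against 550 of the 69047. No test was made of these shares.

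Foundresses trained to faces were compared with those trained to patterns to ask whether members follow the stimulus learned, a difference that the rule did not set since it treated all 8 foundresses alike. Every member had 3 or more counts in at least 1 wasp of each foundress group. With 4 wasps per group, only the 13 members with 3 or more counts in exactly 4 foundresses could have failed this. All 4 foundresses trained to faces had 3 or more counts for 34 members, and all 4 trained to patterns for 41. The mean was higher in faces for 67 members and lower for 83, with a median log2 ratio of -0.17, faces over patterns. Over those of the 69047 identifiers with 3 or more counts in at least 4 foundresses that had counts in both groups, that median was 0.05. Of these, 56.7% were higher in faces, against 44.7% of members, a difference that was not tested.

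Only 9 of the 150 members had enough counts for edgeR's default filter, and they passed it through foundress libraries. None of the 9 was called between faces and patterns by edgeR's quasi-likelihood test, where the background was also 0% (0 of 55226 called). Of the 9, 1 had an unadjusted p under 0.05, against 10.3% of all tested, and DESeq2 called none of the members, with an adjusted p for 1 of the 150. With no filter all 150 could be tested by edgeR: none was called (background 0.026%), and 13 had an unadjusted p under 0.05, which is 8.67% against 7.13% of all identifiers. Of these 13, 3 were higher and 10 lower in faces. The background was not split by direction, so no lean of the members is read from this.

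Among the tested members the lowest p of those higher in faces belonged to PmetTSAr2.0-074453, at rank 14. It had 21, 0, 36 and 16 counts in foundresses trained to faces (M30, M67, M79, M91) and 3, 12, 0 and 3 in foundresses trained to patterns (M1, M15, M4, M5). M67 and M4 had none, so the groups overlapped. In workers it had 1 count in MW32 and 2 in MW21. It averaged 0.924 ± 0.738 CPM (SD, n = 4) in the faces group, against 0.210 ± 0.237 CPM (SD, n = 4) in the patterns group, with an edgeR log2 difference of 1.98 ± 0.83 (SE) and an adjusted p of 0.445.

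The lowest p of those lower in faces belonged to PmetTSAr2.0-032696, the first in the ranking. It averaged 1.67 ± 1.48 CPM (SD, n = 4) in the faces group, against 2.52 ± 1.32 CPM (SD, n = 4) in the patterns group, with an edgeR log2 difference of -0.70 ± 0.56 (SE) and an adjusted p of 0.674. For PmetTSAr2.0-032692 the faces group averaged 1.22 ± 1.09 CPM and the patterns group 1.12 ± 0.516 CPM (SD over 4 wasps), and the edgeR adjusted p was 0.992. Over the 9 tested members standard errors were 0.52 to 1.09 on the log2 scale, so a 2-fold difference between the foundress groups, 1 on that scale, was less than 2 standard errors for each of them.

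Foundress groups did not overlap in CPM for 9 of the 150 members (6%), against a background of 5.69% of the 69047 identifiers, so the share was near that of all identifiers. Of the 9, 7 were higher in patterns and 2 higher in faces, and here too the background was not split by direction. The member at rank 140 had 2, 3, 0 and 0 counts in foundresses trained to faces (M30, M67, M79, M91) and 15, 6, 3 and 7 in foundresses trained to patterns (M1, M15, M4, M5). The member at rank 90 had 4, 4, 6 and 9 counts in faces and 3, 2, 2 and 2 in patterns, in the same order of wasps.

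**Figure D5:**
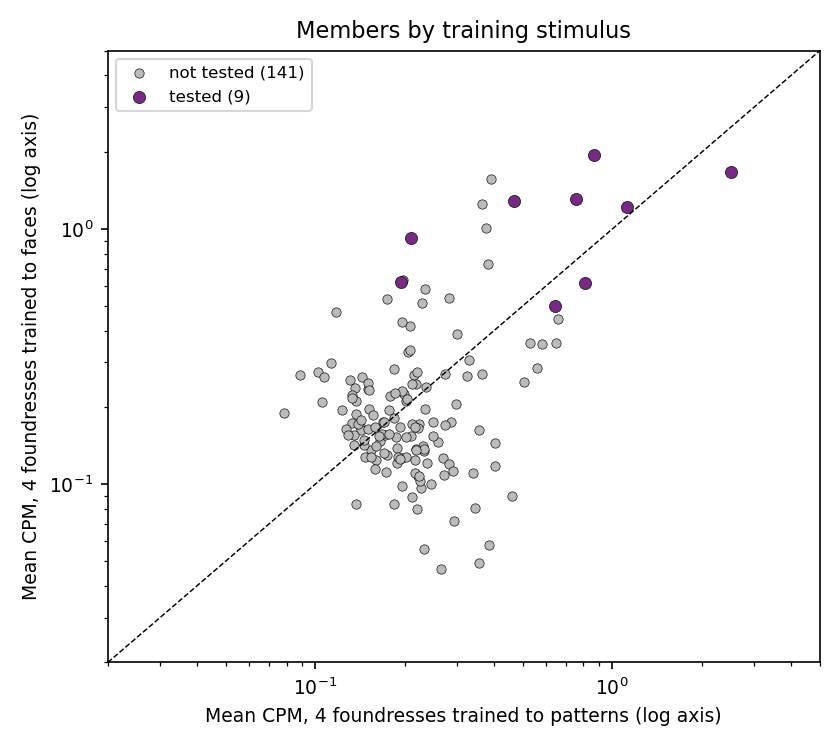
Mean level of each member in the 4 foundresses trained to faces (vertical log axis) and the 4 trained to patterns (horizontal log axis), with the line of equal levels dashed. Of the 9 tested members (purple), 6 lie above the line and 3 below it, and of all 150 members 67 lie above and 83 below.

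Which foundresses had 3 or more counts differed from member to member. Over members, the median foundress count had a median of 3.5, close to this limit of 3. Counting error alone therefore moves members across the limit, and its part in what follows was not separated. Of the 150, 7 had 3 or more counts in all 8 foundresses, 23 in 7, 39 in 6, 68 in 5 and 13 in 4. The 150 members showed 78 different combinations of foundresses with 3 or more counts, 42 of them seen once, and the most frequent was shared by 7 members. The 7 with 3 or more counts in every foundress all lay within the first 28 ranks. Every worker lay below every foundress for 7 members (4.67%), at ranks 1, 3, 5, 7, 10, 11 and 90, against a background of 0.219%, a difference that the rule sets and from which nothing is read. The coefficient of variation over the 8 foundresses, which includes counting error, had a median of 66.0% over members.

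The limits of the rule did not fall at a gap in the data. At rank 150 the median foundress level was 0.1496 CPM and at the next rank, outside, it was 0.1495 CPM. With 8 worker counts 143 identifiers met the foundress condition and with 9 there were 181, both with a median of 22 foundress counts. Within the worker limit, 350 identifiers had 3 or more counts in exactly 4 foundresses and 842 in exactly 3.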

How the data were processed

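Total RNA of 16 single brains, 1 µg each, went into Illumina TruSeq libraries, per the labels' protocols. Trimmomatic 0.32, Bowtie2 and eXpress are named in the submitters' processing notes, without options, order or transcript set. The authors deposited whole-number counts per identifier, not normalized, and whether these are rounded estimates, and how ambiguous reads were counted, was not given in the sources used here. Members and lists were chosen with earlier results of these data known.

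CPM here is a count divided by the library's total times 1000000. Tests used edgeR 4.0.16 (TMM, filterByExpr with minimum count 10, robust quasi-likelihood F test, 4 group means, 12 residual degrees of freedom) in R 4.3.3, adjusted by Benjamini-Hochberg over all 55226 identifiers kept. SE is the log2 difference divided by the square root of F. The fit was tested on simulated data. No covariate was fitted. Alternatives were DESeq2 1.42.0 (its size factors and its test), no filter, an adjusted p under 0.1, foundresses alone, and each wasp left out. Named identifiers are the first and second by rank and the lowest p in each direction of faces against patterns. Members given by rank alone, the linked sets and the runs were singled out after their values were seen. Ratio intervals are exact (Clopper-Pearson, 95%) on counts pooled over wasps, so they leave out the spread between wasps. Over the 24 pairs of libraries within groups, chi-square divided by its degrees of freedom was 7.14 to 55.2, so no library looked like a second copy of another.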

Additional observations from a re-analysis of the deposited data

Results flagged for a closer look

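Of 28 groups of 4 values examined, 2 held a wasp far from the other 3, where chance marks about 1 in 20. Among foundresses trained to patterns, M1 stood at 11.5 CPM for the sum of the 9 members that vary together, against 0.482 to 2.08 CPM in the other 3. The 9 were linked by how they vary over these same foundresses, so the place of M1 follows in part from that choice. Among workers on conspecific nests, MW42 stood at 2.04 CPM for the run of 17 identifiers, against 4.34 to 4.55 CPM in the other 3. That run was also chosen on its values, so the rate of 1 in 20 is no fair measure for either sum.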

How the results depend on the processing

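The number of identifiers that met the rule, 550, moved with each limit: to 4, 107 and 2710 with worker limits of 0, 4 and 16 counts, to 71 and 7 with 3 or more counts in at least 6 or all 8 foundresses, to 11 with 10 or more counts in 4 foundresses, and to 329 with libraries thinned to 1 depth. Leaving out M1, M79 and M91, chosen after seeing the data, gave 131. Leaving out 1 wasp at a time gave 302 to 895, with 141 to 150 of the members kept. It moved by over 1.5 times without M15 (302), M67 (347) or M5 (365) and without MW32 (841), MW21 (842), MW47 (848) or MW42 (895). By construction, fewer foundresses make the rule harder to meet and fewer workers easier.

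No member was called between faces and patterns under any of 21 alternatives. Most members could not be called in settings with a filter, since the main fit tested 9 of the 150. DESeq2 gave an adjusted p to 1 member, while with no filter all 150 were tested. Over all identifiers 0 were called, against 145 by DESeq2, 33 with no filter and 0 to 11 without 1 wasp (1 without M67, 11 without M79). Neighbours called lower in workers, 15, came to 23 at an adjusted p under 0.1, 23 with no filter and 15 to 21 without 1 wasp. The 2031 calls between workers and foundresses over all identifiers, the base of the background shares, came to 4314 at an adjusted p under 0.1, 3254 by DESeq2 and 1034 to 2527 without 1 wasp (1034 without M1, 1077 without MW41, 1222 without M91, 1268 without MW25, 1322 without M30, 1337 without MW42). The cause of these shifts was not tested. The median summed level of members in foundresses, 38.9 CPM, was 39.0 CPM with TMM scaling and 34.2 to 43.6 CPM without 1 foundress. No paired analysis was possible because the wasps carry their own numbers and no replicate numbers shared between groups. Depth limits most members to a few counts per library.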
